A study of Mus musculus with 12 samples.

Results

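The genes described here are 9 genes of oxidative protein folding in the endoplasmic reticulum: P4hb, Pdia3, Pdia4, Pdia5, Pdia6, Erp44, Txndc5, Tmx1 and Ero1lb. They were chosen by name, with earlier results of these data known. Their probes are the non-control probes that carry one of these names on the array. These are 10 probes of 55681, and 9 genes of the 24090 that entered the tests. All 10 probes lay well above background on all 12 arrays, so every gene was measured in every mouse. Pdia6 had 2 probes and each other gene had 1.

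RNA was taken from the hippocampus of 12 wild-type adult male mice kept in constant darkness, 1 mouse per 1-colour Agilent array. Of these, 3 mice were sampled at each of 4 circadian times: CT0 after 36 hours of darkness, CT6 after 42 hours, CT12 after 48 hours and CT18 after 30 hours. CT0 is the start of the subjective day and CT12 the start of the subjective night. All groups shared the genotype and the constant darkness, and the study asked which hippocampal genes follow the circadian clock without light.

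Protein disulfide isomerases carry thioredoxin-like domains with paired cysteines and form, break and rearrange disulfide bonds in proteins that enter the secretory pathway. An oxidase of the Ero1 family takes electrons from reduced isomerases and so keeps them able to oxidise new substrates. In neurons such folding serves receptors, ion channels and secreted factors. When unfolded proteins accumulate, the unfolded protein response raises the genes of many of these enzymes together with chaperones such as Hspa5 (BiP), partly through an element called the ER stress response element (ERSE) in their promoters.

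The promoter windows are shown for the 4 genes that hold this element or a shorter form of it, and for Tmx1, which holds neither. Each runs from 250 bases before to 50 bases from the RefSeq start of the gene on GRCm38.p6, on the strand of the gene, with capitals on the outer bases of the matched element.
Pdia6 (chr12:17266339-17266638, plus strand): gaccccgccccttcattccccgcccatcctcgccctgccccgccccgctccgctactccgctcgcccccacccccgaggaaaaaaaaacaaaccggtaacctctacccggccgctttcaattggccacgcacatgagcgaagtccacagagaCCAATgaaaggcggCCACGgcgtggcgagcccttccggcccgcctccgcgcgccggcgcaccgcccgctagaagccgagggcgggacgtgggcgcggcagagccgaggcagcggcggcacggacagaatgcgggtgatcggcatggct
Ero1lb (chr13:12565633-12565932, plus strand): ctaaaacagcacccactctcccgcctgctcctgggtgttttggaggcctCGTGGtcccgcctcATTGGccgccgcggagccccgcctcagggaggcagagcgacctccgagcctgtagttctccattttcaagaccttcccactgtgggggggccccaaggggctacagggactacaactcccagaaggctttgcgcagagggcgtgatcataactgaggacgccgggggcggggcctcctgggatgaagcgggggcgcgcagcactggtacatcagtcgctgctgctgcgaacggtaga
Pdia3 (chr2:121413652-121413951, plus strand): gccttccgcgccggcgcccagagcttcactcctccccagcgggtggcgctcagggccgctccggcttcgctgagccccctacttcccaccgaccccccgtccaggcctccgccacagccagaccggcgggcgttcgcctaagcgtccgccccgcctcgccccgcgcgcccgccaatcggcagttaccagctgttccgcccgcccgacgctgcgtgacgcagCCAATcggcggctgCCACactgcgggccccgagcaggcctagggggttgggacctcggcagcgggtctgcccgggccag
Pdia4 (chr6:47813463-47813762, minus strand): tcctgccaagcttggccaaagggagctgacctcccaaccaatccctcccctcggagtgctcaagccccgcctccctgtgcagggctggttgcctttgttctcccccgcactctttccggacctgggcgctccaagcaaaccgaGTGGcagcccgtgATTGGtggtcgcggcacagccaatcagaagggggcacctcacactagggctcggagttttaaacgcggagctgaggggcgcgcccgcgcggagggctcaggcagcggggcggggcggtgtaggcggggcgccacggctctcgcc
Tmx1 (chr12:70452904-70453203, plus strand): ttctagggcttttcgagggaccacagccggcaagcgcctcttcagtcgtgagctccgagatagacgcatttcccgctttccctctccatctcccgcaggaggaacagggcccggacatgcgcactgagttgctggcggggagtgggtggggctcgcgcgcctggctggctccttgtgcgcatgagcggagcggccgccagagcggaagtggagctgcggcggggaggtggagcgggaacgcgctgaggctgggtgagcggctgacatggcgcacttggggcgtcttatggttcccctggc
The full element searched was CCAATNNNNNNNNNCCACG on either strand. It occurred in Pdia6, 98 to 80 bases before the start, and on the opposite strand in Ero1lb, 201 to 183 bases before the start. That is 2 of 9 genes, against 37 of 27025 genes with a window (0.137%). The related element ATTGGNCCACG (ERSE-II) occurred in none of the 9 and in 0.0444% of all genes.

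A shorter form without the last base, CCAATNNNNNNNNNCCAC, was chosen after the windows of these genes had been seen, so its count is only a description. It overlaps the full element and was present in 4 of 9 genes, against 0.429% of all genes. Besides Pdia6 and Ero1lb, it lay 29 to 12 bases before the start of Pdia3 and, on the opposite strand, 107 to 90 bases before the start of Pdia4. The 9 genes had 12 windows in all, because RefSeq gives Erp44 and Txndc5 more than 1 start. The windows of P4hb, Pdia5, Erp44, Txndc5 and Tmx1 held none of the 3 letter patterns. The 5 bases CCAAT alone, on either strand, were present in 41.1% of all genes, and CCACG in 35.5%.

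Values are log2 intensities after subtraction of the array's 75th percentile, so a difference of 1 is a factor of 2, and a level of one probe is not set against that of another. Between 59.3% and 77.1% of the spots on an array lay well above background, and the 77.1% was that of CT0 mouse 3. CT0 mouse 1 carried the quality flag Evaluate in its file header and had a median local background of 100. All other arrays were flagged InRange, with a median local background of 25 to 37. Every one of the 3 slides held 1 array of each time, always at the same position for a given time, so position and time cannot be told apart. Hours in darkness also differed between the times and cannot be told apart from them.

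The library labelled CT12 mouse 11 stood apart: it correlated with the others at r of 0.945 to 0.965 over all genes, while all other pairs reached at least 0.984. The median of 7 excitatory neuron markers in it was -4.19 relative to the mean of all arrays, against -0.22 to 0.60 on the other 11. The median of the 7 measured cerebellum markers was 4.62 in it, against -0.90 to -0.01 on the other 11. The calls of CT18 against CT6, CT12 and the mean of the other times are given with and without it. CT12 mouse 10 stood apart in fewer markers: the median of 6 measured thalamus markers was 1.07 in it and 0.88 in CT12 mouse 11, against -0.45 to -0.01 on the other 10. Its excitatory neuron median, -0.22, was the lowest after that of CT12 mouse 11, and its summed cerebellum level of 4.24 was the highest after the 8.21 of CT12 mouse 11. A choroid plexus signal was present in 5 libraries: CT0 mouse 1, CT6 mouse 7, CT12 mouse 10, CT12 mouse 11 and CT18 mouse 14 had marker medians of 1.87 to 3.65. The other 7 libraries lay between -2.27 and -1.82.

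In Pdia3, Pdia4 and Pdia6 the 3 CT18 mice lay above all 9 other mice. P4hb, Erp44 and Ero1lb also had their highest mean at CT18 (2.09, 0.76 and 0.48), but not apart from all the other mice. Such a separation was seen in 2.33% of the 24090 genes. Pdia3 and Pdia6 rose against CT6 (1.67-fold and 2.04-fold) and against CT12 (1.60-fold and 2.24-fold). Pdia4 had a difference from CT6 close to that of Pdia6 (2.03-fold) but did not pass the test with all 12 arrays. The other 6 genes passed none of the tests between times. Each comparison came from 1 limma fit over the 12 arrays, with Benjamini-Hochberg adjustment over all genes and a call at an adjusted p under 0.05.

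**Figure D1:**
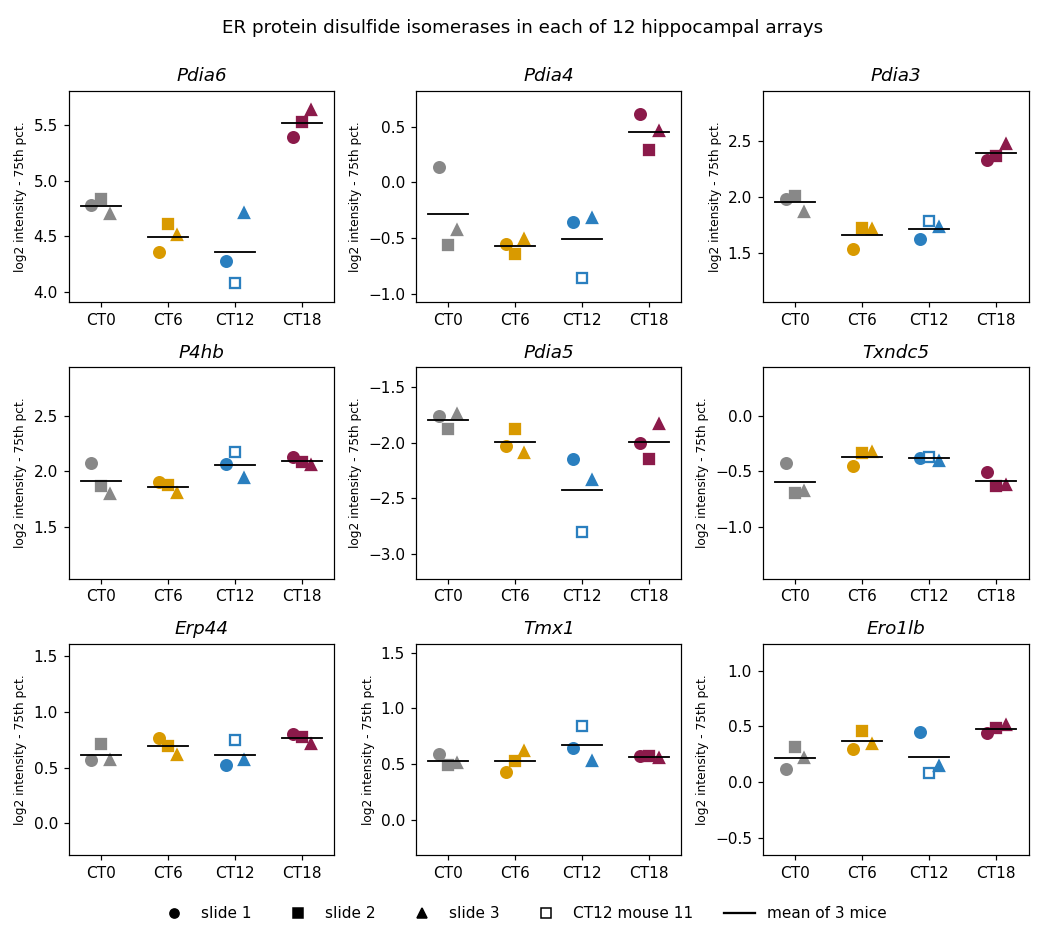
Log2 intensity minus the array's 75th percentile (vertical axis, the same span of 1.9 in every panel) at 4 circadian times, for 1 gene per panel; points are single mice, their shape is the slide, bars are means of 3 mice and the open square is CT12 mouse 11. In Pdia6, Pdia4 and Pdia3 the 3 CT18 points lie above the 9 others.

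Pdia6 codes for an isomerase that works together with the chaperone BiP. Its brighter probe (chr12:17291070-17291129 on mm9, plus strand) stands for the gene. This probe gave 4.79, 4.84 and 4.70 at CT0, 4.36, 4.61 and 4.51 at CT6, 4.28, 4.09 and 4.71 at CT12, and 5.40, 5.53 and 5.64 at CT18. The lowest value was that of CT12 mouse 11, and the CT18 mice were the 3 highest. At CT18 the mean was 5.52 ± 0.12, against 4.49 ± 0.13 at CT6 (SD, n = 3 each). CT18 exceeded CT6 by 1.03 ± 0.15 on the log2 scale (SE, limma adjusted p = 0.0409). Against CT12 the difference was 1.16 ± 0.15 (limma adjusted p = 0.0225), or 1.02 without CT12 mouse 11 (limma adjusted p = 0.0299). Against CT0 it was 0.75 ± 0.15 (1.68-fold), which did not pass (limma adjusted p = 0.599).

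The second Pdia6 probe (chr12:17291323-17291382 on mm9, plus strand) lies downstream of the first. It gave 1.62, 1.76 and 1.66 at CT0, 1.40, 1.49 and 1.38 at CT6, 1.12, 1.04 and 1.27 at CT12, and 2.14, 2.12 and 2.12 at CT18. Its order of times was the same, with CT18 above all others and CT12 at the bottom. With every probe tested on its own, this probe exceeded CT6 at CT18 by 0.71 ± 0.09 (SE, limma adjusted p = 0.0292). In that test the brighter probe narrowly missed the threshold (limma adjusted p = 0.0528).

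Pdia3 (ERp57) is the isomerase that binds calnexin and calreticulin and so acts on glycoproteins. Its probe (chr2:121263343-121263402 on mm9, plus strand) gave 1.98, 2.01 and 1.87 at CT0, 1.53, 1.72 and 1.71 at CT6, 1.62, 1.78 and 1.73 at CT12, and 2.33, 2.37 and 2.48 at CT18. The CT18 mice were the 3 highest and the CT0 mice the next 3, while CT6 and CT12 overlapped. At CT18 the mean was 2.39 ± 0.08, against 1.66 ± 0.11 at CT6 (SD, n = 3 each). CT18 exceeded CT6 by 0.74 ± 0.09 (SE, limma adjusted p = 0.0208) and CT12 by 0.68 ± 0.09 (SE, limma adjusted p = 0.0240). Against CT0 the difference of 0.44 ± 0.09 (1.36-fold) did not pass (limma adjusted p = 0.609). CT12 mouse 11, at 1.78, lay within the range of the other mice, and without it the difference from CT12 was 0.72.

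Pdia4 (ERp72) has more thioredoxin-like domains than the classical isomerases and is found in chaperone complexes with BiP. Its probe (chr6:47746516-47746575 on mm9, minus strand) gave 0.13, -0.56 and -0.43 at CT0, -0.55, -0.65 and -0.51 at CT6, -0.36, -0.86 and -0.32 at CT12, and 0.61, 0.29 and 0.46 at CT18. The lowest mouse was CT12 mouse 11, and the highest outside CT18 was CT0 mouse 1. CT18 exceeded CT6 by 1.02 ± 0.20 (SE, 2.03-fold), which did not pass with all 12 arrays (limma adjusted p = 0.0919) and passed without CT12 mouse 11 (limma adjusted p = 0.0310). The standard error was larger than that of Pdia3, and the 3 CT0 mice had an SD of 0.37.

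The choroid plexus signal moved in part with Pdia4. CT0 mouse 1 (marker median 3.65, the highest), CT6 mouse 7 (2.55) and CT18 mouse 14 (2.66) had the highest Pdia4 of their groups. In CT6 mouse 7 it was -0.51, against -0.55 and -0.65 in the other CT6 mice. At CT12 the highest Pdia4 was that of mouse 12, without the signal (-0.32). CT12 mouse 10 and CT12 mouse 11, with the signal, had -0.36 and -0.86. P4hb was highest of its group in CT0 mouse 1 (2.07), CT12 mouse 11 (2.17) and CT18 mouse 14 (2.13). It was lowest of its group in CT6 mouse 7 (1.80). CT18 mice 15 and 16, with marker medians of -2.02 and -2.27, had Pdia4 at 0.29 and 0.46, above all 9 mice of the other times. The part of these cells in the Pdia4 difference was not tested. Without CT0 mouse 1 the Pdia4 difference between CT18 and the mean of the other times was 0.98 (limma adjusted p = 0.0443), against 0.91 with it (limma adjusted p = 0.0744).

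P4hb is the classical protein disulfide isomerase and also a subunit of prolyl 4-hydroxylase and of the microsomal triglyceride transfer complex. Its probe (chr11:120422076-120422135 on mm9, minus strand) gave 2.07, 1.87 and 1.80 at CT0, 1.90, 1.88 and 1.80 at CT6, 2.07, 2.17 and 1.94 at CT12, and 2.13, 2.09 and 2.05 at CT18. All CT18 mice lay above all CT6 mice but among the CT12 mice. CT18 minus CT6 was 0.23 with a 95% interval of 0.01 to 0.45 (limma adjusted p = 0.570), so the interval excludes a difference as large as that of Pdia3.

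Txndc5 (ERp46) and Erp44 are soluble members. The Txndc5 probe (chr13:38592680-38592739 on mm9, minus strand) gave -0.42, -0.70 and -0.68 at CT0, -0.46, -0.33 and -0.33 at CT6, -0.38, -0.37 and -0.40 at CT12, and -0.51, -0.63 and -0.62 at CT18. It was the one gene of the 9 with CT18 below CT6, by -0.21 with a 95% interval of -0.43 to -0.00085, which did not pass (limma adjusted p = 0.598). All 3 CT18 mice lay below all 3 mice of CT6 and of CT12. The share of all genes with such a separation downwards was not counted. Upwards it was 11.3% for CT6 and 10.7% for CT12.

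Erp44 retains unassembled secretory proteins and Ero1 oxidases in the early secretory pathway. Its probe (chr4:48206274-48206333 on mm9, minus strand) gave 0.57, 0.71 and 0.57 at CT0, 0.77, 0.70 and 0.61 at CT6, 0.53, 0.75 and 0.57 at CT12, and 0.81, 0.77 and 0.71 at CT18. CT18 overlapped each other time. CT18 minus CT6 was 0.07, with a 95% interval of -0.13 to 0.28. This was the narrowest range of the 9 genes, 1.21-fold between the lowest and the highest mouse.

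Pdia5 is a further soluble isomerase, and its lowest values came at CT12. Its probe (chr16:35407720-35407779 on mm9, minus strand) gave -1.76, -1.87 and -1.74 at CT0, -2.03, -1.87 and -2.09 at CT6, -2.15, -2.80 and -2.33 at CT12, and -2.00, -2.14 and -1.83 at CT18. CT18 lay among the CT6 mice, with a difference of 0.0047 and a 95% interval of -0.35 to 0.36, which was -0.023 after normexp background correction. All CT18 mice lay above all CT12 mice, by 0.43 on average (limma adjusted p = 0.228). That difference rested in part on CT12 mouse 11, the lowest of all, and was 0.25 without it (limma adjusted p = 0.395).

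Tmx1 is a transmembrane isomerase. Its probe (chr12:71568085-71568144 on mm9, plus strand) gave 0.59, 0.49 and 0.51 at CT0, 0.43, 0.53 and 0.62 at CT6, 0.64, 0.84 and 0.53 at CT12, and 0.58, 0.57 and 0.55 at CT18. The times overlapped throughout, and the highest value was that of CT12 mouse 11. CT18 minus CT6 was 0.04, with a 95% interval of -0.18 to 0.26.

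Ero1lb (Ero1b in current RefSeq names) is an oxidase that recharges the isomerases rather than an isomerase. Its probe (chr13:12701235-12701294 on mm9, plus strand) gave 0.12, 0.31 and 0.21 at CT0, 0.29, 0.46 and 0.34 at CT6, 0.45, 0.08 and 0.14 at CT12, and 0.44, 0.48 and 0.51 at CT18. CT18 lay above all CT0 mice but overlapped CT6 and CT12. The differences were 0.11 from CT6 (95% interval -0.13 to 0.36), 0.27 from CT0 (95% interval 0.02 to 0.51, not called) and 0.25 from CT12 (limma adjusted p = 0.290). Without CT12 mouse 11 the difference from CT12 was 0.18 (limma adjusted p = 0.533). Ero1lb, with the full ERSE letters in its window, did not pass, while Pdia6, with the same letters, did.

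Counted by test, 2 of 9 genes were called higher at CT18 than at CT6, Pdia3 and Pdia6, against 0.0913% of all genes. For CT18 against CT12 the same 2 were called, against 0.295% of all genes. For CT18 against the mean of the other 3 times they were called again (log2 difference 0.62 for Pdia3 and 0.98 for Pdia6), against 0.145%. The F test over the 4 times called the same 2 (limma adjusted p = 0.0393 for Pdia3 and 0.0473 for Pdia6), against 0.178% of all genes. The 3 CT18 mice lay above the 3 CT6 mice in P4hb, Pdia3, Pdia4 and Pdia6, against 11.3% of all genes, and above the 3 CT12 mice in Pdia3, Pdia4, Pdia5 and Pdia6, against 10.7%. These comparisons share the CT18 arrays and are not independent of each other. The genes were chosen with earlier results of these data known, so their counts beside all genes are descriptions.

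For CT18 against CT0 limma called 0 of the 9 genes and 0 of all genes. At an unadjusted p under 0.05 it had Pdia3, Pdia4, Pdia6 and Ero1lb (4 of 9) and 956 of all genes (3.97%). All 3 CT18 mice lay above all CT0 mice in the same 4 genes, against 6.35% of all genes. Among CT0, CT6 and CT12 themselves limma called 0 of the 9 genes in all 3 pairs. Of all genes, 0.0540% were called higher and 0.00830% lower for CT12 against CT0, 0.0208% higher for CT12 against CT6, and 0 for CT6 against CT0. At an unadjusted p under 0.05 there were 4 for CT12 against CT0 (Pdia3, Pdia5, Pdia6 and Txndc5), 1 for CT12 against CT6 (Pdia5) and 2 for CT6 against CT0 (Pdia3 and Txndc5), where all genes had 11.7%, 11.8% and 2.44%. Without CT12 mouse 11 there were 2 (Pdia3 and Pdia5), 0 and 3 (Pdia3, Pdia6 and Txndc5). All genes then had 8.39%, 7.91% and 5.01%. A cosine of 24 hours called 0 of the 9 and 0.0706% of all genes. At an unadjusted p under 0.05 the cosine had 6 of the 9 genes and 9.72% of all genes. Its fitted peak was at 19.2 hours for Pdia3, 19.5 for Pdia6 and 18.8 for Pdia4.

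**Figure D2:**
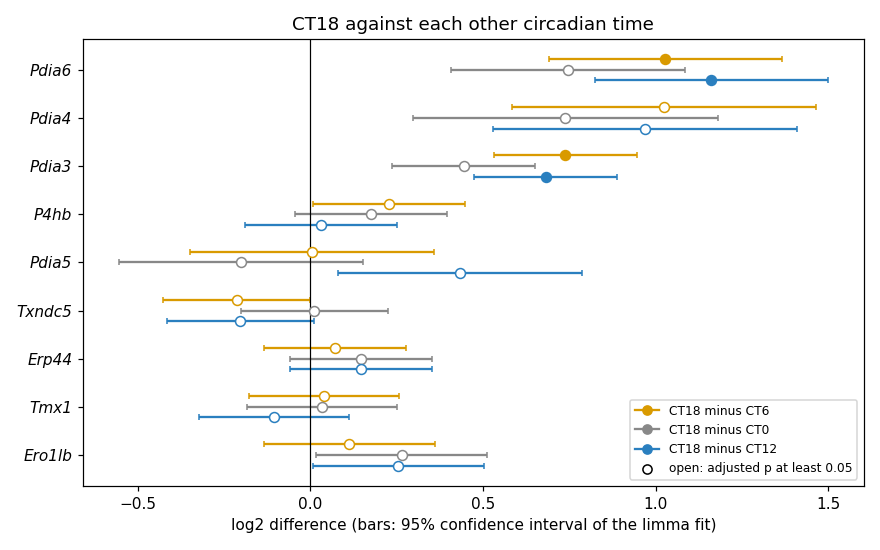
Log2 differences of CT18 from CT6, CT0 and CT12 (horizontal axis) for the 9 genes, with bars for the 95% confidence interval of the limma fit; filled points have an adjusted p under 0.05. Only Pdia6 and Pdia3, against CT6 and against CT12, are filled, and all 3 intervals of Pdia4 lie above 0.

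The calls rested on few mice, although the sizes moved little. With each library left out in turn, CT18 minus CT6 ranged from 0.68 to 0.77 in Pdia3, from 0.96 to 1.09 in Pdia6 and from 0.95 to 1.11 in Pdia4. Pdia3 and Pdia6 were both no longer called against CT6 without CT0 mouse 1, CT6 mouse 5, 6 or 7, or CT18 mouse 14, 15 or 16, with limma adjusted p of 0.0539 to 0.151 for Pdia3 and 0.0844 to 0.249 for Pdia6. Pdia6 alone was also lost without CT0 mouse 2 (limma adjusted p = 0.0695), CT0 mouse 3 (0.0759) or CT12 mouse 10 (0.0687). Without CT12 mouse 11, Pdia3, Pdia4 and Pdia6 were all called against CT6, and so were 0.797% of all genes. The same 3 were then called against the mean of the other times, as were 0.627% of all genes, and the F test called Pdia3 and Pdia6, with 0.245% of all genes. Centring each array on its median ended the calls against CT6, with differences of 0.83 for Pdia3 and 1.12 for Pdia6 (limma adjusted p = 0.590 and 0.283). Keeping dim probes did so too, with differences of 0.74 and 1.03 (limma adjusted p = 0.0813 and 0.131).

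Against CT12 at CT18, Pdia3 and Pdia6 were both no longer called without CT12 mouse 10, CT6 mouse 6 or 7, or CT18 mouse 14, 15 or 16. The limma adjusted p was then 0.0549 to 0.158 for Pdia3 and 0.0515 to 0.156 for Pdia6. Leaving out CT12 mouse 10 gave 0.0559 and 0.0534. Without CT12 mouse 12 Pdia4 was called too (limma adjusted p = 0.0386). That fit left only CT12 mouse 10 and CT12 mouse 11, which both carried a thalamus and a choroid plexus signal. In it 28.3% of all genes had an unadjusted limma p under 0.05 for CT18 against CT12, against 16.6% in the main fit. Against the mean of the other times, Pdia3 and Pdia6 were both lost without CT6 mouse 7 or any 1 of the 3 CT18 mice, and Pdia6 also without CT0 mouse 1 (limma adjusted p = 0.0507). The F test called them without CT12 mouse 11 or CT12 mouse 12, and not with any of the other 10 libraries left out.

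Within slides, CT18 minus CT6 was 0.80, 0.65 and 0.77 in Pdia3, 1.04, 0.92 and 1.13 in Pdia6, and 1.16, 0.94 and 0.97 in Pdia4 on slides 1, 2 and 3. In Pdia5 it was 0.02, -0.27 and 0.26, with no common direction. With slide as a block, Pdia3 was called against CT6 (limma adjusted p = 0.0327), while Pdia6 (0.0518) and Pdia4 (0.0505) just missed, and 0.108% of all genes were called higher. The F test called 0 of the 9 under the block and 0.0706% of all genes. Against the mean of the other times all 3 were called under the block (limma adjusted p = 0.0293 for Pdia3 and 0.0380 for each of Pdia4 and Pdia6), against 0.149% of all genes.

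Markers of other cells moved with CT18 in part. The 7 dentate granule cell markers, all measured, had summed log2 levels of 3.45 to 3.68 at CT0, 2.74 to 3.27 at CT6, 1.95 to 3.18 at CT12 and 3.59 to 3.89 at CT18. Of these markers 6 of 7 had CT18 above CT6, with a median difference of 0.56, and 0 were called. Without CT12 mouse 11, 1 of them was, Lct (limma adjusted p = 0.0337), against 0.797% of all genes. The 7 fibroblast and meninges markers had CT18 below CT6 in 7 of 7, with a median of -0.63 and 0 called, and their summed levels overlapped: 4.48 to 5.12 at CT18, against 4.96 to 5.28 at CT6. The 7 cerebellum markers had CT18 above CT6 in 0 of 7, with a median of -0.39 and 0 called, and summed levels of 1.41 to 2.09 at CT18, against 1.98 to 2.35 at CT6. All 3 measured blood markers had CT18 above CT6, with a median of 0.24 and 0 called, and summed levels of 5.08 to 5.77 at CT18, against 5.04 to 5.29 at CT6. The part of these cells in the isomerase differences was not tested. In bulk tissue, fewer cells of a type and less RNA per cell cannot be told apart.

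All 36 pairs of the 9 genes were compared, since a call in one gene and none in another does not show that they differ. For every pair, the log2 difference between the 2 genes on each array was compared between the 3 CT18 arrays and the 9 others, by an exact two-sided permutation test over 220 relabelings (smallest possible p 0.00455). Such a difference within an array does not depend on its scaling constant. The genes had been chosen with earlier results of these data known, so the p-values describe these arrays. Pdia3, Pdia4 and Pdia6 are grouped below because of their CT18 values on the same arrays. The direction of their 18 pairs with the other 6 genes therefore follows from the grouping, and the counts of those pairs are descriptions.

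In these 18 pairs the adjusted p reached at most 0.0390 in the exact permutation tests. The excess ranged from 0.41, for Pdia3 over Ero1lb, to 1.11, for Pdia6 over Txndc5. All pairs with Pdia6 used only its brighter probe. In 15 of the 18 pairs the CT18 arrays did not overlap with the 9 others. Pdia3, Pdia4 and Pdia6 each had such a separation by themselves, so this count follows in part from the grouping. The share of all gene pairs with such a separation was not counted. Without CT12 mouse 11, 18 of 18 had an adjusted p under the threshold, and with labels permuted only within slides 16 of 18 did. Within slides there were only 64 relabelings, with a smallest possible p of 0.0156 and a smallest adjusted p of 0.0312. There Pdia3 over Pdia5 (adjusted p = 0.0511, exact permutation) and Pdia3 over Ero1lb (0.0703) missed the threshold.

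Among the 3 themselves, Pdia6 exceeded Pdia3 by 0.36 (adjusted p = 0.0258, exact permutation), which was not called with labels permuted within slides (0.0511). This excess is that of the brighter Pdia6 probe. The second Pdia6 probe had CT18 above the mean of the other times by 0.71, and Pdia3 by 0.62. Against CT6 the differences were 0.71 and 0.74. The second probe was not tested in pairs. Pdia4 exceeded Pdia3 by 0.29 (adjusted p = 0.164, exact permutation, and 0.0312 with labels permuted within slides), and Pdia6 exceeded Pdia4 by 0.07 (adjusted p = 0.782). Among the other 6 genes, 3 of 15 pairs passed. Txndc5 lay below Ero1lb by 0.35 and below P4hb by 0.28 (adjusted p = 0.0258 each, exact permutation), which missed the threshold within slides (0.0511 each). Tmx1 lay below P4hb by 0.15 (adjusted p = 0.0446, exact permutation), which missed it without CT12 mouse 11 (0.0595) and with quantile normalization (0.107). In all, 22 of 36 pairs passed, 21 without CT12 mouse 11 and 18 within slides. Of the 22, 17 passed within slides too, and Pdia4 over Pdia3 passed only within slides.

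**Figure D3:**
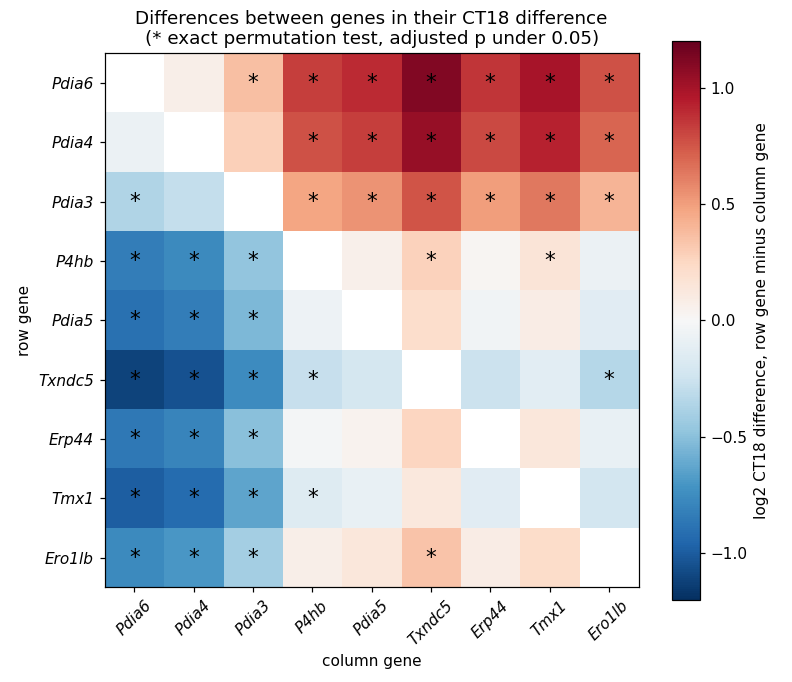
Colour gives the CT18 difference (mean of the 3 CT18 arrays minus the mean of the 9 others, log2) of the row gene minus that of the column gene, for all 36 pairs of genes; stars mark an adjusted p under 0.05 in the exact permutation test. All pairs of Pdia6, Pdia4 or Pdia3 with one of the other 6 genes carry a star.

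Over the 12 arrays, Pdia3 and Pdia6 varied together with r = 0.93, Pdia4 and Pdia6 with r = 0.88 and Pdia3 and Pdia4 with r = 0.84. Without CT12 mouse 11 these were 0.98, 0.85 and 0.86. Txndc5 ran against Pdia3 (r = -0.62) and Pdia6 (r = -0.61). These values are descriptions of 12 arrays that share the 4 times and the slides. Each gene on the mean of all 9 gave r of 0.95 for Pdia6 and Pdia4 and 0.93 for Pdia3, against -0.19 for Tmx1 and -0.47 for Txndc5. Without CT12 mouse 11, r was 0.94 for Pdia6 and Pdia4, 0.96 for Pdia3, 0.27 for Tmx1 and -0.41 for Txndc5. The mean of all 9 includes the gene itself, and genes with a wide range weigh most in it. The high r of Pdia6, Pdia4 and Pdia3 therefore follows in part from how the mean is formed.

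The 5 genes most like the mean of the 9 over the 12 arrays, members left out, were Spef1 (r = 0.966), Arid4a (0.953), the transcript named ENSMUST00000097644 (0.950), Sdf2l1 (0.950) and Sfpq (0.944). They were chosen for following a profile that is highest at CT18, so their differences between CT18 and CT6 are descriptions: 1.83 in Sdf2l1, 0.64 in Sfpq, 0.50 in Spef1 and 0.29 in Arid4a. Sdf2l1 is an ER protein found in chaperone complexes with BiP, Sfpq a splicing factor of the nucleus, Spef1 a microtubule-binding protein and Arid4a a chromatin protein.

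Lists of related genes were read in the comparison of CT18 with CT6, where the median over all genes was -0.02 and 46.2% of genes lay above 0. The 9 genes themselves had a median of 0.11, with 8 above 0. Of 9 measured further members of the isomerase family, 0 were called, the median was -0.03 and 3 lay above 0. Examples are Pdia2, at -0.07 ± 0.33, and Txndc11, at -0.07 ± 0.09 (SE). Of 8 partners in thiol oxidation, 0 were called, with a median of -0.06; the peroxidase Prdx4 was at -0.20 ± 0.10 and the sulfhydryl oxidase Qsox1 at -0.21 ± 0.10 (SE). Of 12 thioredoxins and glutaredoxins of the cytosol and mitochondria, 0 were called, with a median of 0.03, among them Nxn at 0.14 ± 0.26 and Txnl1 at -0.13 ± 0.21 (SE).

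Of 9 genes of the calnexin cycle, in which Pdia3 acts, 0 were called against CT6. Without CT12 mouse 11, 1 was called (Calr, limma adjusted p = 0.0403), against 0.797% of all genes. The cycle had a median of 0.03. Of 8 of its genes with a promoter window, 2 held the full ERSE letters, Canx and Calr, against 0.137% of all genes. Its chaperone Calr was at 0.56 ± 0.11 (SE, limma adjusted p = 0.0927) and Uggt1 at 0.33 ± 0.11 (SE, limma adjusted p = 0.378). Against CT12 at CT18, Calr was called (0.75, limma adjusted p = 0.0277), as were 0.295% of all genes. Among the partners of P4hb, 1 of 4 was called, against 0.0913% of all genes: P4ha1, the catalytic subunit of prolyl 4-hydroxylase, rose by 1.11 ± 0.15 (SE, limma adjusted p = 0.0242). P4ha2 was at 0.35 ± 0.15 (SE, limma adjusted p = 0.564). P4hb, the shared subunit of both enzymes, was at 0.23.

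The BiP chaperone list had 4 of 13 genes called higher, against 0.0913% of all genes, 0 called lower, 12 above 0 and a median of 0.57. Sdf2l1 rose by 1.83 ± 0.14, BiP itself (Hspa5) by 1.33 ± 0.12, Manf by 1.15 ± 0.12 and Creld2 by 0.97 ± 0.12 (SE), with limma adjusted p of 0.00388 to 0.0208. Manf and Creld2 are secreted ER stress proteins. Without CT12 mouse 11 there were 7 of 13 called, with Dnajb11, Hsp90b1 and Hyou1 added, against 0.797% of all genes. Of 10 of these chaperone genes with a promoter window, 4 held the full ERSE letters (Hspa5, Hsp90b1, Dnajc3 and Creld2), against 0.137% of all genes. Dnajb11 held the ERSE-II letters, against 0.0444% of all genes. The 12 sensors and transcription factors of the unfolded protein response had 0 called, 10 above 0 and a median of 0.21. Their smallest p was that of Xbp1, at 0.75 ± 0.13 (SE, limma adjusted p = 0.0694), and Atf6b was at 0.39 ± 0.12 (SE, limma adjusted p = 0.302). Xbp1 was called, as 1 of 12, without CT12 mouse 11 (limma adjusted p = 0.0314) and with slide as a block (0.0468). Of all genes, 0.797% and 0.108% were called higher in these 2 settings.

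Of 12 core clock genes, Per2 was higher at CT18 than at CT6 (0.88, limma adjusted p = 0.0239) and Nr1d1 lower (-1.11, limma adjusted p = 0.00578), against 0.0913% and 0.0415% of all genes. Ciart and Dbp were called by the F test (limma adjusted p = 0.00950 and 0.0471) and not in this pair, with differences of -0.74 and -0.45. The lists had been chosen with earlier results of these data known, so their counts are descriptions.

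**Figure D4:**
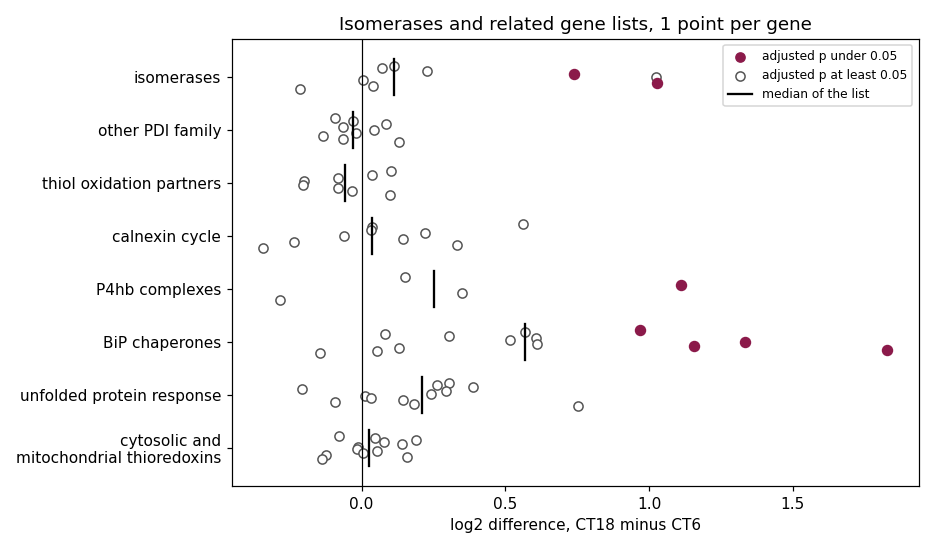
Log2 difference of CT18 minus CT6 (horizontal axis) for each measured gene of 8 lists; filled points have a limma adjusted p under 0.05 and black bars are list medians. The filled points belong to the 9 genes (2), the partners of P4hb (1) and the BiP chaperones (4).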

How the data were processed

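Total RNA of each mouse was labelled with Cy3 and hybridised to a 1-colour Agilent array. Agilent Feature Extraction 10.7.3.1 produced the spot values, per the file headers, and the deposited processed signal is an intensity corrected for background within each array. Per the file headers, probe coordinates are on mm9, and the other columns used were spot flags (other, 0 or 1) and the intensities of the spot and of its local background. The deposited value table holds log2 values, with column medians of 5.369 to 5.370; each column correlated best with its own array (r from 0.990), and its normalization is not stated in the sources used here. It served as an alternative.

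Here each processed signal was put on the log2 scale, and the 75th percentile of its array was subtracted; outlier spots were left out. Of 55681 probes, 33966 passed the filter, that is, were well above background on all 3 arrays of some time. Each gene was read from its brightest probe, giving 24090 genes, with names from RefSeq (GRCm38.p6) where an accession or symbol matched. R 4.3.3 and limma 3.58.1 fitted 1 mean per time over 12 arrays, with Benjamini-Hochberg adjustment over all genes, each contrast on its own, and a threshold of 0.05. Exact permutation tests compared pairs of genes. The labels name separate mice; the number of arrays limits the precision.

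All 9 genes are named, with up to 4 called genes of each related list, or the 2 with the smallest F test p, and the 5 genes most like the mean of the 9. Members and lists were chosen with earlier results of these data known. Planned features of the proteins are not analysed here. Alternatives were median centring, quantile normalization, the deposited table, normexp correction of the background (offset 50), no filter, other probe summaries, slide as a block, another variance model and leaving out each library.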

Additional observations from a re-analysis of the deposited data

How the results depend on the processing

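The main analysis called 2 of the 9 genes in the F test and higher at CT18 against CT6, against CT12 and against the mean of the other times. Median centring and no filter on dim probes each gave 0 in all 4 of these tests. At an unadjusted p under 0.05, limma had 3 of the 9 genes for CT18 against CT6 in both settings (Pdia3, Pdia4 and Pdia6), and 3.82% and 5.17% of all genes. Slide as a block gave 0 in the F test and 1 for CT18 against CT6, and each probe tested on its own gave 1 in the F test. Leaving out each library gave 0 to 2 in the F test and 0 to 3 in each of the other 3 tests, and 0 for CT18 against CT0 and for the cosine. Why the calls changed was not tested. More genes were tested without the filter, and fewer arrays entered the fit when a library was left out. All genes together had 0 to 120 calls in the F test over these 12 fits, and 1 to 192 for CT18 higher than CT6. The pairs that passed numbered 22, 21 without CT12 mouse 11, 21 with quantile normalization and 18 within slides. Median centring moved the median over all genes by 0.09 for CT18 minus CT6, and the other scalings by at most 0.015.

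No difference of Pdia3, Pdia4 or Pdia6 from CT6 or from the mean of the other times changed sign under any alternative. Small differences that did not pass did so. For CT18 minus CT6, Pdia5 was -0.023 with normexp, -0.0099 and -0.042 without CT6 mouse 5 and mouse 7, and -0.075 without CT18 mouse 16, with -0.075 to 0.079 over all 12 libraries left out. Tmx1 was -0.0073 without CT6 mouse 5, with -0.0073 to 0.089 over all 12. For CT18 minus the mean of the other times, Pdia5 was -0.00060 without CT18 mouse 16 (-0.00060 to 0.15 over all 12) and Txndc5 was 0.0026 with median centring. There Tmx1 was 0.13 with median centring, 0.0024 with normexp, 0.0060 without CT6 mouse 7 and 0.018 without CT12 mouse 11, with -0.033 to 0.018 over all 12. The cause was not tested. With 3 mice per time, small differences are not detectable here.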
